A study of Mus musculus with 4 samples.

Results

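The replication-dependent histone genes encode the linker histone H1 and the core histones H2A, H2B, H3 and H4. They were taken as all protein-coding genes of the GENCODE vM21 annotation whose names start with Hist1h, Hist2h, Hist3h or Hist4, which gave 67 of 21938 protein-coding genes. Of these, 54 belong to the Hist1 cluster on chromosome 13, 10 to Hist2 on chromosome 3, 2 to Hist3 on chromosome 11 and 1, Hist4h4, lies on chromosome 6. By product, 6 encode H1, 18 H2A, 18 H2B, 12 H3 and 13 H4.

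Chromatin accessibility (ATACseq, which sequences DNA opened to the Tn5 transposase) and occupancy of the histone variant H2A.Z (ChIPseq on chromatin digested with micrococcal nuclease) were profiled in livers of C57Bl/6 male mice. The mice were 8 to 12 weeks old, were fed a normal diet, and had their livers taken between 9 am and noon. The WT liver carried floxed Uhrf1 alleles (Uhrf1-fl/fl) without Cre, and the Uhrf1hepKO liver carried the same alleles with Alb:Cre, which acts in hepatocytes, so that the other cells of the liver keep Uhrf1, a factor that maintains DNA methylation. Each condition was 1 library, and the same 2 livers served both assays, so no difference between WT and Uhrf1hepKO has a replicate check, no p-value is given, and genotype and individual liver cannot be told apart.

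Replication-dependent histone genes are known for being expressed in S phase, when new DNA has to be packaged. They have no introns in most cases, and their transcripts end in a stem-loop in place of a poly(A) tail. Many H2A and H2B genes lie head to head and share the DNA between their start sites as a promoter. Adult hepatocytes are mostly non-dividing, and in such cells part of the supply of histones comes from replacement genes elsewhere in the genome. The question asked of the peak lists was which histone genes have open or H2A.Z-occupied start sites in this tissue, in each genotype.

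The letters of a few promoters show what these genes share. They were read from the GRCm38 sequence, 5′ to 3′, and capitals mark 5 short motifs on either strand. These are the CCAAT box and the TATAAA box, the octamer ATTTGCAT of H2A and H2B promoters, the AAACACA box of H1 promoters and, as part of an element of H4 promoters, the letters GGTCCG. The first pair of sequences is the whole DNA between the start sites of 2 head-to-head H2A/H2B pairs, written along the plus strand, with the H2A gene leaving to the left and the H2B gene to the right.
Hist1h2ag/Hist1h2bj, chr13:22042945-22043213, plus strand: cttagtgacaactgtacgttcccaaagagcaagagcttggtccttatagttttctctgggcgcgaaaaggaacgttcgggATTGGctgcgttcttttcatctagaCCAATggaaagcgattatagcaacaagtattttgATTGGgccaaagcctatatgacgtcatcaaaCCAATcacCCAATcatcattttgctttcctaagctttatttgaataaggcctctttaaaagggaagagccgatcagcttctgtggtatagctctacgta
Hist1h2ac/Hist1h2bc, chr13:23683949-23684198, plus strand: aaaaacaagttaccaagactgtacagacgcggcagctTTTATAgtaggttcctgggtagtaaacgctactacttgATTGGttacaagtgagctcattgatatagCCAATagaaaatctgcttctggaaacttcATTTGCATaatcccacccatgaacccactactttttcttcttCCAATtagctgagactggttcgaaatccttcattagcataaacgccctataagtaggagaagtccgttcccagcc
Next are the 250 bases before the annotated start of 1 H3 gene and 1 H1 gene. Hist1h3a had the highest H2A.Z fold of the WT list among the histone genes, and Hist1h1e was the H1 gene with ATACseq peaks.
Hist1h3a, chr13:23762387-23762636, minus strand: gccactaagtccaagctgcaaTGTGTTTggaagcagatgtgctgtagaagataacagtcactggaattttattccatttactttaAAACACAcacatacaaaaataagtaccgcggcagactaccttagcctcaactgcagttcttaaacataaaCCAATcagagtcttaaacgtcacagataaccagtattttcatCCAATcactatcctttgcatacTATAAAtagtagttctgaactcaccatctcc
Hist1h1e, chr13:23622559-23622808, minus strand: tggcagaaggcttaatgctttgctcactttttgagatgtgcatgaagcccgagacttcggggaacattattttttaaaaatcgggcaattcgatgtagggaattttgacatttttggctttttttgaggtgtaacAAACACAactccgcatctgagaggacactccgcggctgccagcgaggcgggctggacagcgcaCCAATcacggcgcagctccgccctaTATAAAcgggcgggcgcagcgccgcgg
Last are 2 H4 genes with GGTCCG in the same orientation, Hist1h4c with a peak in every list and Hist1h4b with a peak in none.
Hist1h4c, chr13:23698455-23698704, minus strand: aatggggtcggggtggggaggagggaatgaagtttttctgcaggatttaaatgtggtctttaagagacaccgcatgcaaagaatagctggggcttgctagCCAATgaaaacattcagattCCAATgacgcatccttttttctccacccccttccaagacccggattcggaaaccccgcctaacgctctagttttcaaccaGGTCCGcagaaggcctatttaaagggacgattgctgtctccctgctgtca
Hist1h4b, chr13:23756763-23757012, plus strand: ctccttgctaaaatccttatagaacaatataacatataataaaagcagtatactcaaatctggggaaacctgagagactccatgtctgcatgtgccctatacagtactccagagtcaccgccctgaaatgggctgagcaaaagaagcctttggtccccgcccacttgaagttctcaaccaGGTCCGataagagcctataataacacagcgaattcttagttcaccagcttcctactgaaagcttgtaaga

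In the 250 bases before the start, CCAAT was found in 54 of 67 histone genes (80.6%), against 36% of all protein-coding genes. All 18 H2A and all 18 H2B genes held it, as did 9 of 12 H3 genes, 5 of 6 H1 genes and 4 of 13 H4 genes. TATAAA was found in 50.7% of the histone genes and 11.5% of all coding genes. The octamer was found in 15 histone genes (22.4%, against 1.45%), of which 7 were H2A and 8 H2B, and paired genes share the letters. AAACACA was found in 4 of 6 H1 genes and in 11.9% of all histone genes, against 5.66%. GGTCCG, searched for after the H4 sequences had been seen, was found in 12 of 13 H4 genes, 1 of 18 H2B and 1 of 12 H3 genes, none of the H1 and H2A genes and 7.69% of all coding genes. The 5 motifs have no letters in common where they were marked in the 6 sequences printed. A match describes letters and is not a measured binding site, and the GGTCCG of Hist1h4b came without a peak in any list.

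Peaks lay close to the transcription start site (TSS, the 5′ end of the gene) at a larger share of the histone genes than of coding genes in general. Close means an overlap with the window of 1 kb to each side. In WT, ATACseq peaks lay at 34 of 67 histone genes (50.7%, Wilson 95% interval 39.1 to 62.3), against 26.4% of all coding genes, and in Uhrf1hepKO at 38 (56.7%, 44.8 to 67.9), against 24.1%. With peaks below their list's median fold left out, the WT count fell to 17 (25.4%), against 17.1% of coding genes, and the Uhrf1hepKO count to 29 (43.3%), against 16%. H2A.Z peaks lay at 53 of 67 (79.1%, 67.9 to 87.1) in each genotype, against 46% of coding genes in WT and 44.5% in Uhrf1hepKO. These intervals cover counting error only, and the 67 windows are not independent, since they merge into 38 groups of overlapping windows. The peaks behind these counts were 26 and 26 distinct ATACseq peaks and 73 and 72 distinct H2A.Z peaks, in WT and Uhrf1hepKO in that order.

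**Figure D1:**
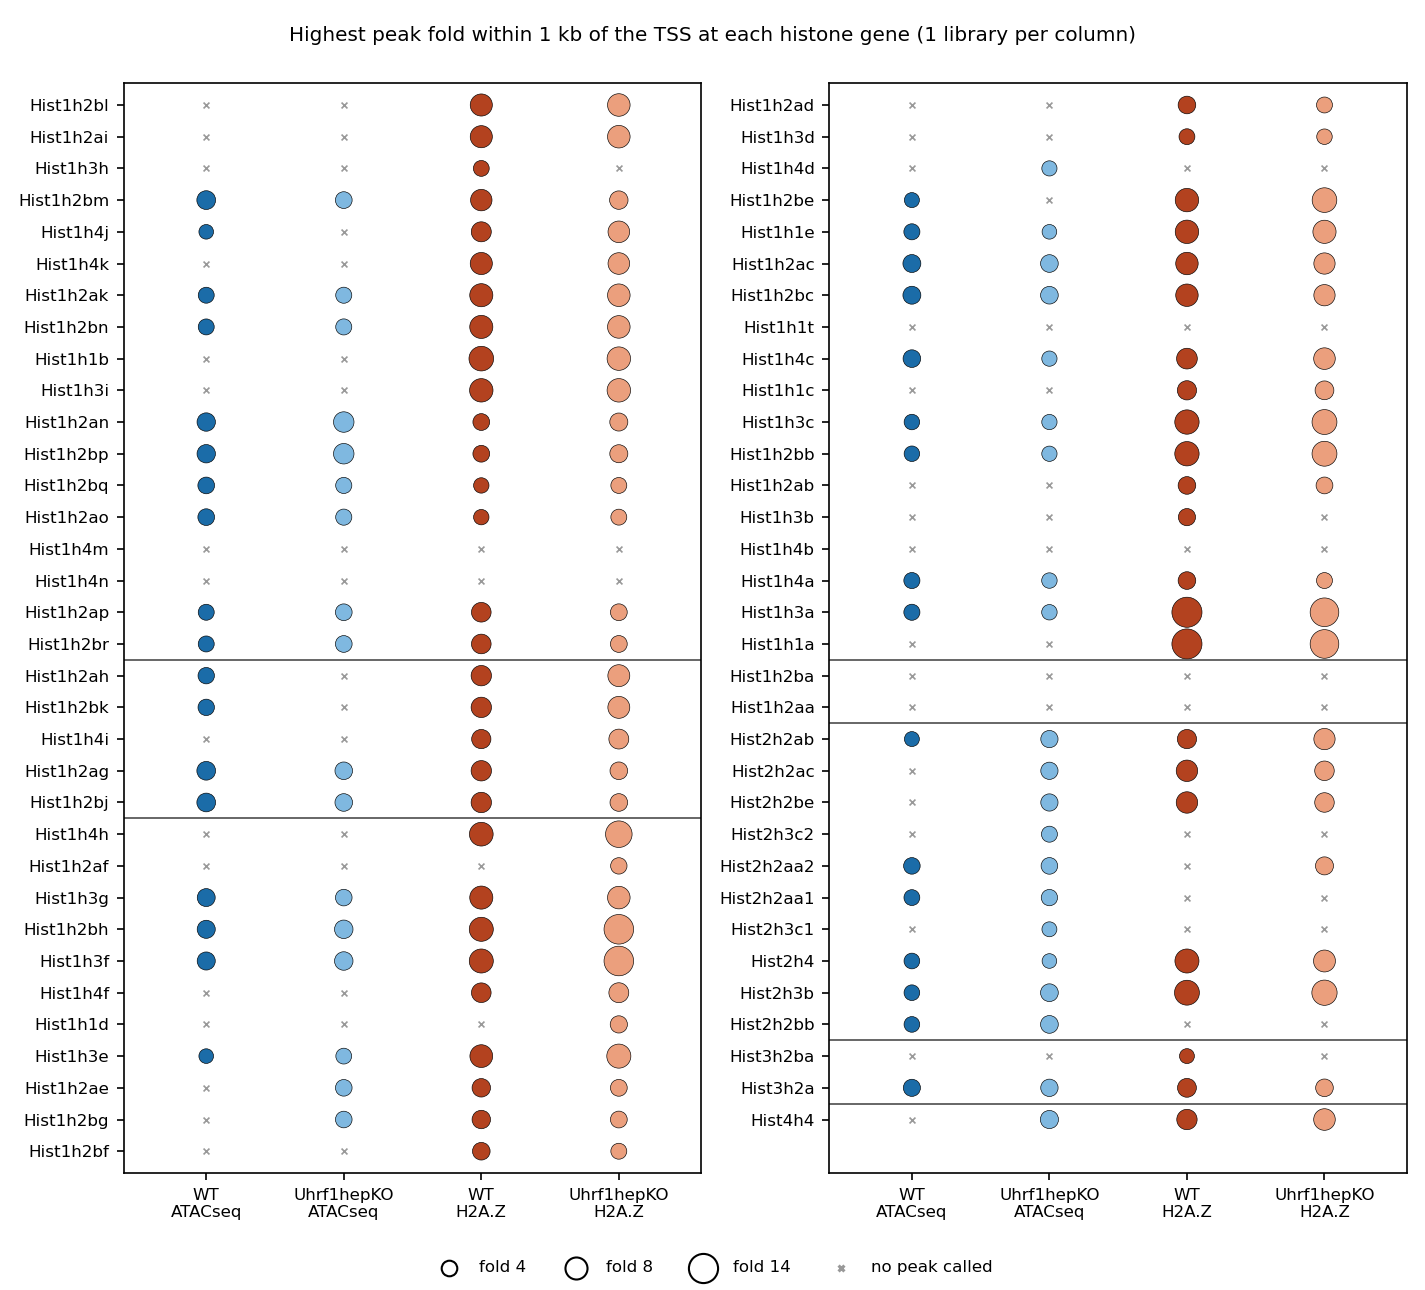
Fold enrichment of the highest peak within 1 kb of the TSS for each of the 67 histone genes, in cluster and genome order (rows; lines separate clusters and the blocks of Hist1), in the 4 peak lists (columns, 1 library each). Dot area is proportional to fold, crosses are genes with no peak called, and 27 genes have a dot in every column while 6 have none.

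A peak in every list was found at 27 histone genes (40.3%), against 18.4% of coding genes. No peak in any list was found at 6 genes, a share of 8.96% beside 50.1% of coding genes. Those 6 were Hist1h4b, Hist1h4m, Hist1h4n and the 3 genes known for expression in testis, Hist1h1t, Hist1h2ba and Hist1h2aa. Hist1h4m and Hist1h4n are near copies, with 89% and 86.3% of the 75-base words within 1 kb of their starts found elsewhere in the genome, which was so for 0% at Hist1h1t, 5.45% at the testis pair and 8.1% at Hist1h4b.

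Where a peak was present its fold, the pileup of reads over the caller's background for the same library, was ordinary. In WT, the median of the highest fold per gene was 4.35 at the 34 histone genes with an ATACseq peak and 4.69 at the 5786 coding genes with one. For H2A.Z the medians were 6.82 and 7.07. In Uhrf1hepKO they were 4.55 and 4.44 for ATACseq and 7.44 and 7.44 for H2A.Z. Folds are not scaled between libraries, so values of different lists are given side by side and not compared.

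The shares by histone type spanned 16.7% to 66.7% for ATACseq and 66.7% to 88.9% for H2A.Z in WT. ATACseq peaks lay at 11 of 18 H2A and 12 of 18 H2B genes in WT and at 12 and 12 in Uhrf1hepKO. For H3 the counts were 6 and 8 of 12, and for H4 4 and 5 of 13. Of the 6 H1 genes, Hist1h1e had an ATACseq peak in both genotypes and the other 5 had none (16.7%, 3.01 to 56.4). H2A.Z peaks lay at 4 of 6 H1, 14 of 18 H2A, 16 of 18 H2B, 10 of 12 H3 and 9 of 13 H4 genes in WT, and at 5, 16, 15, 8 and 9 in Uhrf1hepKO. The intervals of all 5 types overlap in every list, and the types were not tested against each other.

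**Figure D2:**
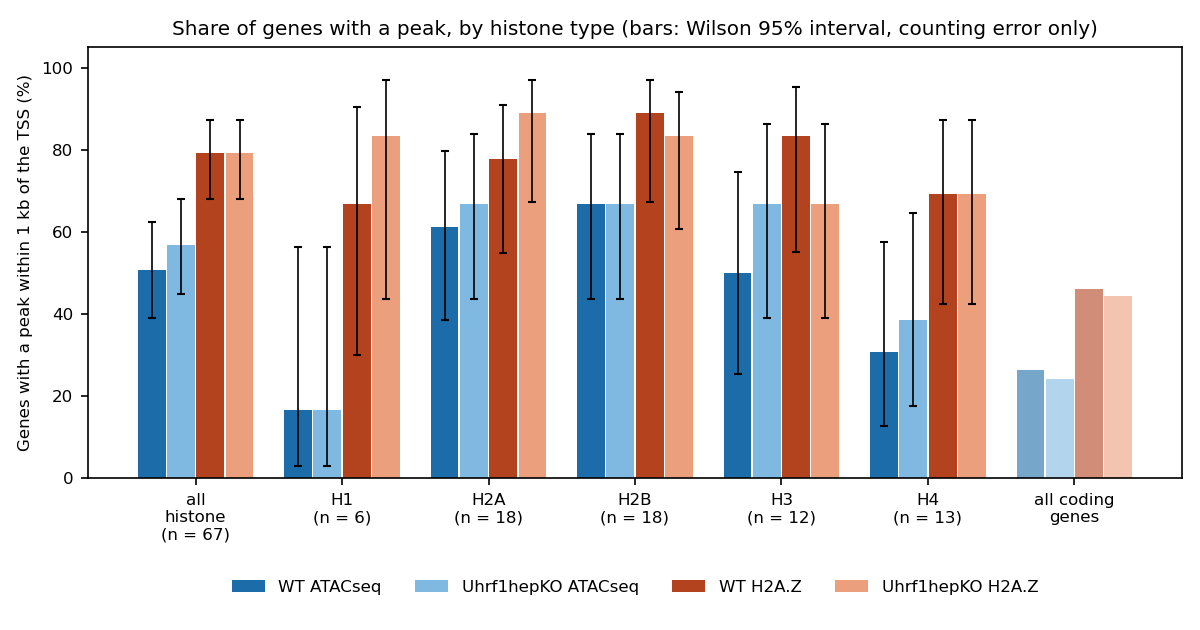
Percent of genes that have a peak overlapping 1 kb around the TSS (vertical axis) for all 67 histone genes, each histone type and all protein-coding genes, with 1 bar per peak list and Wilson 95% intervals as error bars. ATACseq bars of H2A and H2B stand between 61.1% and 66.7%, and those of H1 at 16.7%.

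Among the H1 genes, most of those with an H2A.Z peak had no ATACseq peak called. Over all coding genes, 4737 of the 10099 with H2A.Z in WT had no ATACseq peak, and 4986 of the 9765 in Uhrf1hepKO. Hist1h1b had 4 H2A.Z peaks in WT, of which the highest, with a fold of 9.99, had its summit 965 bp downstream of the TSS, and the Uhrf1hepKO list had one of fold 9.06 at the same 965 bp. Hist1h1a had a summit 76 bp downstream with a fold of 7.07 in WT and 71 bp downstream with 5.35 in Uhrf1hepKO. Neither of these linker histone genes had an ATACseq peak. Hist1h1e had H2A.Z at 592 bp upstream in WT (fold 9.02) and 394 bp upstream in Uhrf1hepKO (fold 8.83), with ATACseq folds of 4.24 and 3.53. Hist1h1t, the testis H1, had nothing in any list.

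The highest histone-gene folds for H2A.Z were at H3 genes. Hist1h3a had its summit 216 bp upstream of the TSS in WT (fold 14.9) and 209 bp upstream in Uhrf1hepKO (fold 13.5). The same peak reaches into the window of Hist1h1a and is counted there too. Hist1h3f, head to head with Hist1h2bh, is annotated as starting 433 bp before its coding sequence. It had a summit 125 bp downstream of that start with a fold of 9.51 in WT and 126 bp downstream with 14.4 in Uhrf1hepKO. These 2 places carried the top histone-gene fold of the WT and of the Uhrf1hepKO list, and each was also occupied in the other list. Hist1h3c and Hist1h2bb, whose windows overlap, had folds of 9.75 in WT and 10.2 in Uhrf1hepKO at a summit 211 and 179 bp upstream of Hist1h3c, and Hist1h4h had 9.26 and 11.6.

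The highest WT ATACseq folds were at H2A and H2B genes. Hist1h2bm, an H2B gene, had 5.79 in WT and 4.62 in Uhrf1hepKO. The pair Hist1h2ag and Hist1h2bj had 5.77 and 5.09, and the pair Hist1h2an and Hist1h2bp had 5.56 and 6.90, the highest of the Uhrf1hepKO list among histone genes. Next in Uhrf1hepKO were a peak centred 429 bp downstream of the start of the H3 gene Hist1h3f (5.62, and 5.38 at 397 bp in WT) and the H4 gene Hist4h4 (5.43). The annotated start of Hist1h3f lies 433 bp before its coding sequence, so its peak is near the coding start. The H3 gene Hist1h3g had 5.30 in WT and 4.54 in Uhrf1hepKO, with the peak centre 62 and 69 bp upstream of the TSS.

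In head-to-head pairs ATACseq peaks reached over the DNA between the start sites at most pairs. There were 13 pairs with start sites at most 1 kb apart, 12 made of an H2A and an H2B gene and 1, Hist1h2bh and Hist1h3f, of an H2B and an H3 gene. The start sites were 176 to 660 bp apart, with a median of 268 bp. The 660 bp is that of Hist1h2bh and Hist1h3f, taken from an annotated start 433 bp before the coding sequence of Hist1h3f. An ATACseq peak lay over the DNA between the starts in 8 of 13 pairs in WT and in 9 of 13 in Uhrf1hepKO, 7 of them shared (87.5% and 77.8%). The centre of the peak was itself between the starts in 6 of these 8 pairs and in 7 of these 9, and outside them in 2 and 2. The peak centres lay a median of 83.5 bp from the midpoint in WT and 74 bp in Uhrf1hepKO, at most 225 and 248 bp from it.

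H2A.Z was called at nearly all pairs and at many of them on each side. Any H2A.Z peak was present at 12 of 13 pairs in each genotype, the exception being the testis pair Hist1h2ba and Hist1h2aa. No share over head-to-head pairs of other coding genes was counted to set beside the pair counts of either assay. The coding shares given above are per gene, and the window of a pair is longer. A summit on each side of the gap was present in 8 pairs in WT and 6 in Uhrf1hepKO. These include summits 4 bp inside the gap at Hist1h2bn in WT and 16 bp inside it at Hist1h2bl in Uhrf1hepKO. In H2A/H2B pairs with both summits these were 298 to 407 bp apart in WT (median 370 bp, 7 pairs) and 305 to 423 bp apart in Uhrf1hepKO (median 392 bp, 5 pairs). Measured from the nearest start site, 26 of 27 distinct H2A.Z summits at pairs were downstream in WT, with a median offset of 102 bp, and 22 of 23 in Uhrf1hepKO, with a median of 88 bp. At a pair every point outside the gap counts as downstream of its nearest start, and that is a median of 88.2% of the merged window. Counted per gene, with the body of one gene as the upstream side of the other, 18 of 26 paired genes had an upstream and 20 a downstream summit within 500 bp in WT, and 15 and 16 in Uhrf1hepKO.

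The pairs printed above differed in their details. Between Hist1h2ag and Hist1h2bj the ATACseq peak was centred 66 bp from the midpoint on the Hist1h2bj side in WT and 74 bp on the Hist1h2ag side in Uhrf1hepKO. WT H2A.Z summits were 47 bp into Hist1h2ag (fold 6.82) and 38 bp into Hist1h2bj (fold 4.39). In Uhrf1hepKO the Hist1h2bj side had a summit 88 bp downstream (fold 5.11) and the Hist1h2ag side had none called. At Hist1h2ac and Hist1h2bc the WT ATACseq peak (fold 5.29) was centred 66 bp inside Hist1h2ac, outside the gap, and the Uhrf1hepKO peak (5.13) was centred between the starts, 71 bp before that of Hist1h2ac. H2A.Z was called on the Hist1h2bc side in both lists and on the Hist1h2ac side in neither.

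**Figure D3:**
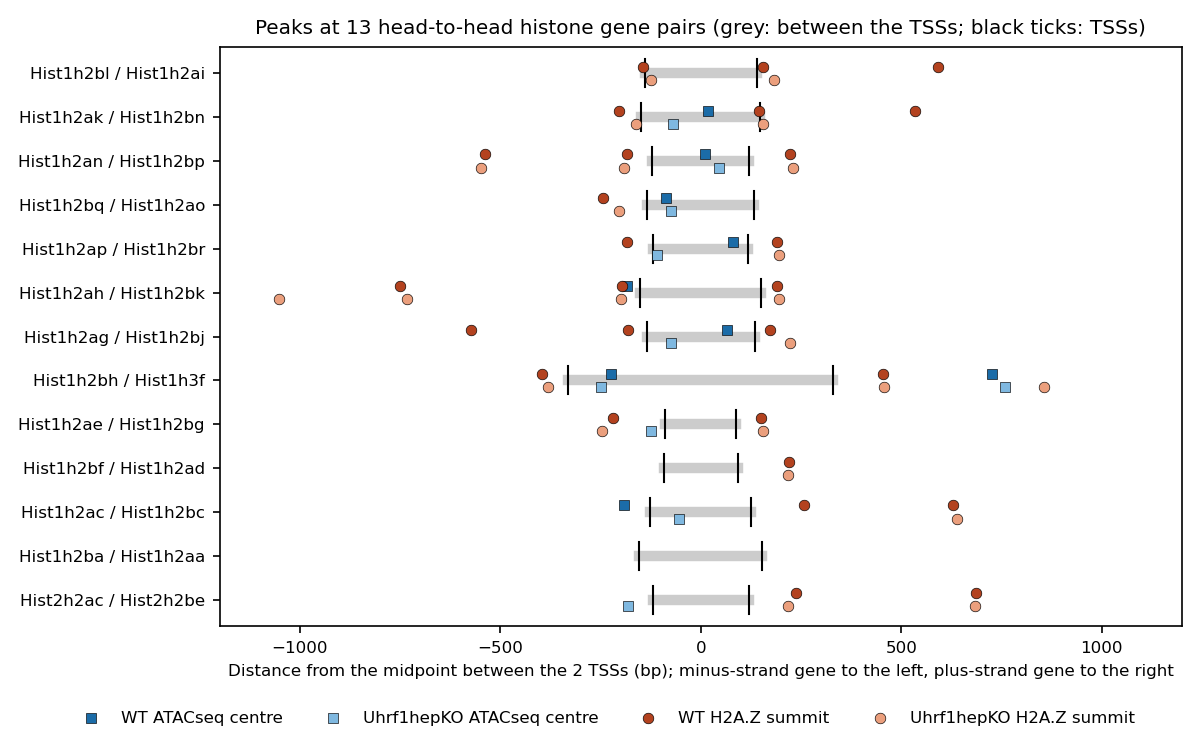
Positions of ATACseq peak centres (squares) and H2A.Z summits (circles) at the 13 head-to-head pairs, as distance in bp from the midpoint between the 2 start sites (black ticks), with WT in dark and Uhrf1hepKO in light colours. H2A.Z circles sit at or outside the ticks in nearly every row, and the row of Hist1h2ba and Hist1h2aa is empty.

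Among genes without such a partner, more had H2A.Z upstream than downstream, as was also so over all coding genes. In WT the surplus at single genes came from the H3 and H4 genes. Of the 41 single genes, 20 (48.8%) had a WT H2A.Z summit within 500 bp upstream and 12 (29.3%) within 500 bp downstream. In Uhrf1hepKO the counts were 24 (58.5%) and 13 (31.7%). The 24 single H3 and H4 genes had 14 upstream and 5 downstream in WT and 14 and 6 in Uhrf1hepKO, and the 17 single H1, H2A and H2B genes had 6 and 7 in WT and 10 and 7 in Uhrf1hepKO. Over all coding genes 32.7% had an upstream and 24.6% a downstream summit in WT, and 31.4% and 22.5% in Uhrf1hepKO. Of the 47 distinct WT summits at single genes 30 were upstream, with a median offset of -216 bp, and of the 49 in Uhrf1hepKO 29 were upstream, with a median of -209 bp. In each list 20 summits lay 150 to 350 bp upstream, a band for which no share over coding genes was counted.

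A summit on both sides was present at 5 of 41 single genes in WT (12.2%) and 9 in Uhrf1hepKO (22%), beside 16.8% and 15% of coding genes. It was upstream only at 15 of 41 in each genotype (36.6%), beside 15.9% and 16.5%. It was downstream only at 7 genes in WT (17.1%) and 4 in Uhrf1hepKO (9.76%), beside 7.84% and 7.53%. The 26 paired genes had both sides occupied at 14 in WT and 9 in Uhrf1hepKO, where the upstream side of one gene is the body of the other. Of the 11 single H3 genes, 6 had an upstream summit only in each list and none had both sides occupied, while of the 13 single H4 genes 6 in WT and 4 in Uhrf1hepKO had an upstream summit only.

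**Figure D4:**
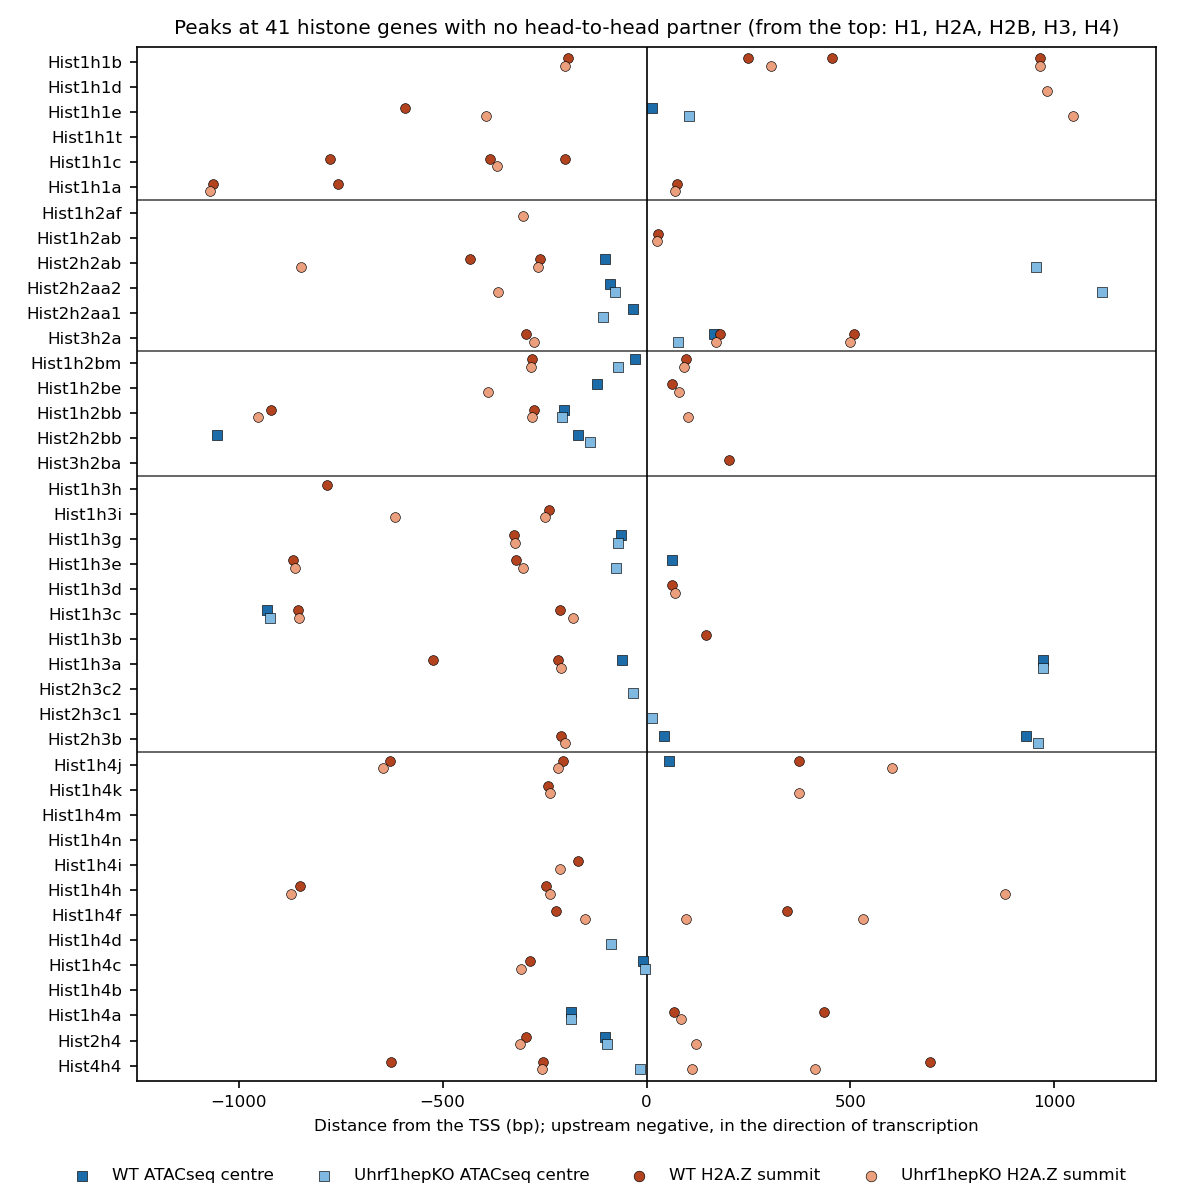
Positions of ATACseq peak centres (squares) and H2A.Z summits (circles) at the 41 histone genes with no head-to-head partner, as distance in bp from the TSS in the direction of transcription, with WT in dark and Uhrf1hepKO in light colours. H2A.Z circles gather 150 to 350 bp upstream in the H3 and H4 rows, and the space downstream of H3 starts is mostly empty.

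The body of a core histone gene is largely recurring sequence. Of the 75-base words in the coding sequence, a median of 79% at H2A, 72% at H2B, 79% at H3 and 65.1% at H4 genes were found more than once in the genome, with up to 16 copies, and 8.81% at H1 genes. Over all 67 genes the median was 0% for the 500 bp before the TSS and 46.4% for the 500 bp after it. Among the 8 single genes with no recurring word downstream, WT summits lay upstream at 3 and downstream at 3, and Uhrf1hepKO summits upstream at 4 and downstream at 5. These 8 were Hist1h1a, Hist1h1b, Hist1h1d, Hist1h1t, Hist1h2be, Hist2h2bb, Hist2h4 and Hist4h4, with no H3 gene among them. The annotated starts of Hist1h1d and Hist1h2be lie far from their coding starts. The H4 genes Hist2h4 and Hist4h4 had summits within 500 bp upstream only in WT and on both sides in Uhrf1hepKO. At the paired genes a median of 54.7% of the words downstream recurred, beside 37.2% at single genes. A WT summit lay downstream at 20 of 26 paired genes, beside 12 of 41 single genes. Paired and single genes also differ in histone type and in layout, so this comparison cannot separate recurring sequence from these. How reads with several equally good placements were treated is not given in the sources used here, and the part of recurring sequence in the side of the summits was not tested.

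Genes in near-identical copies had H2A.Z peaks in fewer cases. At 10 genes more than 50% of the words within 1 kb recurred, namely Hist1h2bq, Hist1h2ao, Hist1h4m, Hist1h4n, Hist1h2ap, Hist1h2br, Hist2h3c2, Hist2h2aa2, Hist2h2aa1 and Hist2h3c1. WT H2A.Z peaks lay at 4 of these 10 and at 49 of the other 57 (86%), and Uhrf1hepKO H2A.Z peaks at 5 and at 48 (84.2%). ATACseq peaks lay at 6 of the 10 in WT and 8 in Uhrf1hepKO, beside 28 (49.1%) and 30 (52.6%) of the other 57. Without these 10 genes the shares stayed above those of all coding genes in each list.

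**Figure D5:**
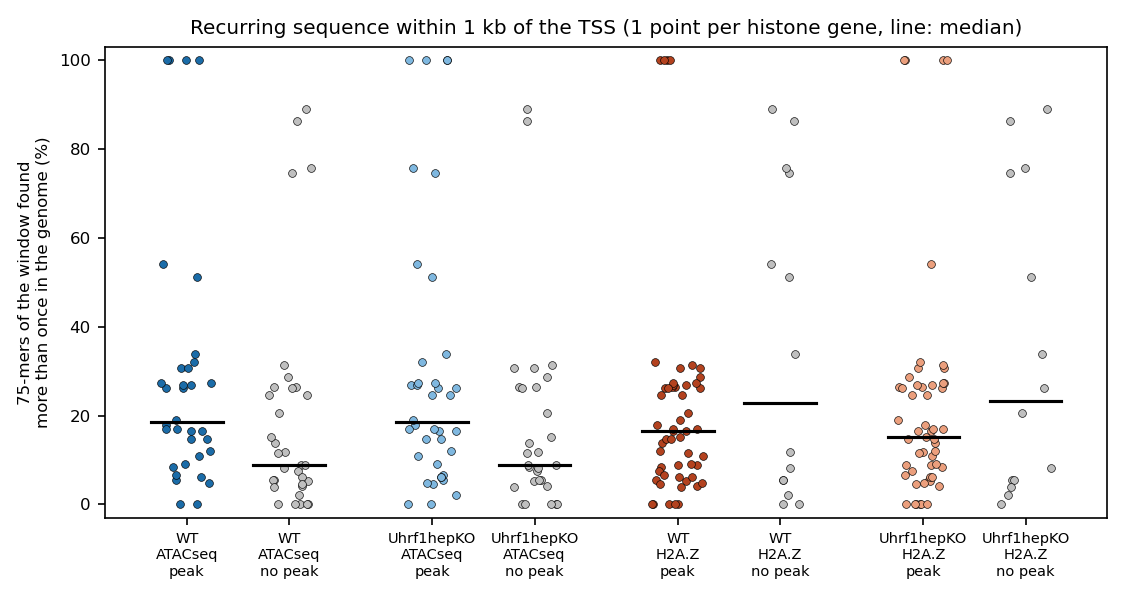
Percent of 75-base words within 1 kb of the TSS that occur more than once in the genome (vertical axis), 1 point per histone gene, split by whether the gene has a peak in each list, with the median as a line. The points without a WT H2A.Z peak include 6 of the 10 genes above 50%.

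The Hist2 cluster, chr3:96219865-96270132, had its accessibility and H2A.Z at partly different genes. ATACseq peaks lay at 6 of 10 genes in WT and at 10 of 10 in Uhrf1hepKO, and H2A.Z peaks at 5 and 6. The 10 in Uhrf1hepKO rest on 7 distinct peaks, and 8 of 10 genes had a peak centre within 500 bp of their own start, beside 6 in WT. Hist2h3b, an H3 gene, had H2A.Z folds of 10.2 in WT and 10.5 in Uhrf1hepKO, and at its own start an ATACseq peak of fold 3.61 in WT and none in Uhrf1hepKO. Higher ATACseq peaks in its window, of fold 4.04 in WT and 5.18 in Uhrf1hepKO, lay 167 and 138 bp upstream of its neighbour Hist2h2bb, which had no H2A.Z peak. Hist2h4 had H2A.Z at 9.51 in WT and 7.90 in Uhrf1hepKO, with summits 296 and 311 bp upstream, and ATACseq at 4.06 and 3.52. Hist2h2ab had H2A.Z folds of 6.09 and 7.44 and an ATACseq peak of fold 3.68 in WT, 101 bp upstream. The Uhrf1hepKO ATACseq peak in its window (4.89) was centred 954 bp downstream, over the start of Hist2h2ac.

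The near-identical Hist2 genes had the same calls within each pair of copies, with 1 exception. Hist2h2aa1 and Hist2h2aa2, which encode H2A, had ATACseq folds of 4.13 and 4.52 in WT and 4.39 and 4.55 in Uhrf1hepKO. H2A.Z was called at Hist2h2aa2 in Uhrf1hepKO alone, with a fold of 5.35, in a peak of which 0% of the words recur. Hist2h3c1 and Hist2h3c2, which encode H3, had ATACseq peaks in Uhrf1hepKO (folds of 3.67 and 4.21), none in WT, and no H2A.Z peak. Between 51.2% and 75.7% of the words in these windows recur, and reads within such words cannot be assigned to one copy. The pair Hist2h2ac and Hist2h2be had H2A.Z folds of 7.56 in WT and 6.27 in Uhrf1hepKO and the ATACseq peak of fold 4.89 in Uhrf1hepKO alone.

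The small clusters were occupied by H2A.Z. Hist3h2a had ATACseq folds of 4.83 in WT and 4.96 in Uhrf1hepKO and H2A.Z folds of 5.85 and 5.11. It had 3 H2A.Z summits in each list, at 296 bp upstream and 179 and 508 bp downstream in WT and at 277 bp upstream and 171 and 500 bp downstream in Uhrf1hepKO. Hist3h2ba, an H2B gene, had an H2A.Z peak of fold 3.66 in WT and no other peak. Hist4h4 had H2A.Z folds of 6.82 in WT and 7.67 in Uhrf1hepKO, with the summit 254 and 257 bp upstream, and an ATACseq peak in Uhrf1hepKO alone, with a fold of 5.43.

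The Hist1 genes fall into 4 blocks separated by at least 100 kb. The block at chr13:21715763-21837530 holds 18 genes, of which 10 and 9 had ATACseq peaks and 16 and 15 had H2A.Z peaks in WT and Uhrf1hepKO. The block at chr13:22035164-22043676 holds 5 genes, with 4 and 2 for ATACseq and 5 and 5 for H2A.Z. The block at chr13:23531050-23764406 holds 29 genes, with 13 and 15 for ATACseq and 24 and 25 for H2A.Z. The block at chr13:23933773-23934851 holds the testis pair and had no peak of any list within 1 kb of it. Counted over the whole 29-gene block with 1 kb on either side, there were 0.195 H2A.Z peaks per kb in WT and 0.221 in Uhrf1hepKO, beside 0.0189 and 0.0173 over the genome. Of these H2A.Z peaks, 30 of 46 in WT and 31 of 52 in Uhrf1hepKO lay within 1 kb of a histone gene start and the others elsewhere in the block.

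Most peaks at histone genes were found in both genotypes. Of the 34 genes with an ATACseq peak in WT, 30 had one in Uhrf1hepKO (88.2%), beside 76.7% of coding genes, and these 30 were 78.9% of the 38 with one in Uhrf1hepKO. A peak near a neighbour's start counts too. Hist1h3a, Hist2h3b and Hist2h2ab had a WT peak centred 61 bp upstream, 44 bp downstream and 101 bp upstream. In Uhrf1hepKO their windows held only a peak centred 972, 960 and 954 bp downstream, near the starts of Hist1h4a, Hist2h2bb and Hist2h2ac. Of the 53 genes with H2A.Z in WT, 50 had it in Uhrf1hepKO (94.3%), beside 92.8%. Peak by peak, 20 of 26 WT ATACseq peaks (76.9%) were overlapped by a Uhrf1hepKO peak and 20 of 26 in the reverse, and 62 of 73 WT H2A.Z peaks (84.9%) and 58 of 72 in the reverse (80.6%). Over all peaks of the lists these shares were 61.3%, 60.3%, 70% and 75.6%. The 62 H2A.Z summits moved by a median of 11.5 bp between the lists, and 47 moved by at most 30 bp.

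ATACseq peaks in 1 genotype alone were at 4 histone genes for WT (5.97%), beside 6.16% of coding genes. For Uhrf1hepKO they were at 8 (11.9%), beside 3.84%. Those in WT were the H4 gene Hist1h4j (fold 3.52), the H2B gene Hist1h2be (3.72) and the pair Hist1h2ah and Hist1h2bk (4.43). Those in Uhrf1hepKO were the pair Hist1h2ae and Hist1h2bg (4.55), the H4 gene Hist1h4d (3.79), and Hist2h2ac, Hist2h2be, Hist2h3c1, Hist2h3c2 and Hist4h4 given above. The WT-only folds stand beside a median of 4.35 at histone genes in the WT list, and the Uhrf1hepKO-only folds beside a median of 4.55 in the Uhrf1hepKO list, with 5 of the 8 genes at or above it. Among those 5, Hist1h2ae and Hist1h2bg share 1 peak, and so do Hist2h2ac and Hist2h2be, so the genes are not separate observations. A missing peak means that none was detectable at this depth. H2A.Z in WT alone was at Hist3h2ba, Hist1h3h (4.14) and Hist1h3b (4.87), which is 4.48% of histone genes, beside 3.3% of coding genes. In Uhrf1hepKO alone it was at Hist1h2af (4.42), Hist1h1d (4.88) and Hist2h2aa2, again 4.48%, beside 1.77%. At the coding start of Hist1h1d, away from its annotated 5′ end, both lists had H2A.Z. These are counts from 1 liver each, and the difference between genotypes was not tested.

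ATACseq and H2A.Z mostly coincided by gene. Of the 34 WT ATACseq genes, 31 had a WT H2A.Z peak (91.2%), beside 92.7% of coding genes, and the 3 without were Hist2h2aa1, Hist2h2aa2 and Hist2h2bb. In Uhrf1hepKO 33 of 38 did (86.8%), beside 90.5%, and the 5 without were Hist1h4d, Hist2h2aa1, Hist2h2bb, Hist2h3c1 and Hist2h3c2. The reverse was less complete, with H2A.Z but no ATACseq peak at 22 genes in WT (32.8%, beside 21.6% of coding genes) and 20 in Uhrf1hepKO (29.9%, beside 22.7%). Beside these counts stand the sizes of the lists, 10582 and 10764 ATACseq peaks and 51450 and 47135 H2A.Z peaks.

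CpG content moved with the peaks. Within 500 bp of the TSS the median number of CpGs was 62 at histone genes and 41 at all coding genes. It was 43.5 for H1, 57 for H4, 58 for H3, 68 for H2B and 70 for H2A. Genes with a WT ATACseq peak had a median of 67 and those without 57, and the medians were 65 and 51.5 for WT H2A.Z. With 4 CpGs, Hist1h1d had the fewest, and its annotated 5′ end lies 1828 bp from its coding start, where H2A.Z folds were 7.07 in WT and 10.2 in Uhrf1hepKO with summits 258 and 246 bp upstream. Hist1h2be is annotated as starting 35168 bp from its coding start, where H2A.Z folds were 9.51 and 10.2 and no ATACseq peak was called. The part of CpG content in the presence of peaks was not tested.

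Most genes that act on histone transcripts or on new histones had peaks too. Of 19 such genes, 15 had an ATACseq peak in WT (78.9%) and 10 in Uhrf1hepKO (52.6%), a difference that was not tested, and 18 had H2A.Z in each (94.7%). Over all coding genes these shares were 26.4% and 24.1% for ATACseq and 46% and 44.5% for H2A.Z. The highest WT ATACseq folds were at Lsm11 (7.59), part of the U7 particle that cleaves histone transcripts, Asf1b (7.12), a histone chaperone, and Npat (6.73), the coactivator of histone transcription. The highest WT H2A.Z folds were at Chaf1a (12.7), of the chromatin assembly factor, Casp8ap2 (10.5) and the chaperone gene Nasp (9.99). Of 11 replacement histone genes, which are expressed outside S phase, 6 had ATACseq (54.5%) and 7 H2A.Z peaks (63.6%) in each genotype. H2afv led both WT lists (7.23 and 11.2). Next in WT were H2afy (4.90, centred 806 bp downstream of the TSS) and H2afz (4.87) for ATACseq. For WT H2A.Z they were Cenpa (10.7) and H2afy (6.82). H2afv and H2afz encode H2A.Z itself.

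The peak lists gave little to check the tissue by. Of 5 hepatocyte markers, Alb alone had a peak within 1 kb of the TSS, in the Uhrf1hepKO ATACseq list (fold 4.18). Markers of Kupffer cells, endothelial cells and lymphocytes, 3 each, had none in any list. Of the 3 markers of proliferating cells, Top2a, Ccnb1 and Mki67, 2 had ATACseq and 3 had H2A.Z peaks in each genotype, and the lists hold no measure of expression or of cell division. Uhrf1 had ATACseq folds of 3.96 in WT and 4.70 in Uhrf1hepKO and H2A.Z folds of 6.58 and 6.04, and the lists hold no measure of its deletion.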

How the data were processed

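The authors used BWA-MEM to align reads of the 4 libraries to GRCm38.p4, cleaned and sorted the alignments with PICARD, and ran MACS2 on each library by itself, broad for ATACseq and with summits for H2A.Z. The MACS2 version and any control library are not given in the sources used here. FastQC 0.11.5 is named in the submitters' processing notes. Each deposited peak carries a score made for display, a fold (ratio of pileup to the caller's background) and −log10 p- and q-values. For H2A.Z it carries another value, the distance of the summit from the peak start. All are from the authors' caller.

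A peak was counted at a gene when, on chromosomes 1 to 19, X or Y, it shared at least 1 bp with the window reaching 1 kb to each side of the gene's 5′ end in GENCODE vM21. ATACseq positions are peak centres and H2A.Z positions are summits, 1-based in GRCm38. Wilson 95% intervals were computed with Python 3.11.15. CpGs were counted within 500 bp, and 75-base words on both strands of the RefSeq FASTA of GRCm38. This count was tested on simulated data. No histone gene name matched the RefSeq promoter table, so sequences were read by coordinates.

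For H2A.Z, the folds of 93.8% of WT and 91.6% of Uhrf1hepKO peaks lay on even steps. These steps put the background, 1 common value per list for those peaks, at 3.10 reads per base (WT) and 3.30 (Uhrf1hepKO). For ATACseq the depth is unknown.

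The members and gene lists were chosen with earlier results of these data known. Named genes are all of Hist2, Hist3 and Hist4, the 5 Hist1 genes with the highest fold in each list, those with an ATACseq peak in 1 genotype, those with no peak, the testis genes, the top 3 of each other list, and Uhrf1. Hist1h3g, Hist1h4c, Hist1h1e, Hist1h1d, Hist1h3h, Hist1h3b, Hist1h2af and the genes with over 50% recurring words were added after their values were seen, as were the 3 proliferation markers and Alb. Windows, TSSs, peak thresholds, recurring peaks and gene sets were varied 1 at a time.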

Additional observations from a re-analysis of the deposited data

How the results depend on the processing

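Of the 70 alternative values for the 7 main shares, 55 stayed within the Wilson interval of the value given above and 15 did not. With 5 kb on either side, the shares of histone genes with a peak were 77.6% and 80.6% for ATACseq and 94% and 98.5% for H2A.Z in WT and Uhrf1hepKO, and 100% of the genes with H2A.Z in WT had it in Uhrf1hepKO. Coding genes had 30.2%, 27.9%, 52.8% and 51% there. With 200 bp, they were 62.7% and 58.2% for H2A.Z, beside 33.7% and 32.2% of coding genes, and 65.6% of WT ATACseq genes had WT H2A.Z. With peaks below their list's median fold left out, they were 25.4% and 43.3% for ATACseq and 67.2% and 55.2% for H2A.Z, beside 17.1%, 16%, 39.2% and 37.6% of coding genes, 75.6% of WT H2A.Z genes had Uhrf1hepKO H2A.Z, and 70.6% of WT ATACseq genes had WT H2A.Z. Leaving out peaks with 50% or more recurring words gave 67.2% for Uhrf1hepKO H2A.Z. Wider or narrower windows and fewer peaks move these shares by construction. The overlap shares between lists at these settings are given without shares over coding genes. The start of the coding sequence, chosen after seeing the data, gave 49.3%, 56.7%, 80.6% and 79.1%. No paired analysis was possible because each condition is 1 library and no result comes from a test, and for the same reason no library could be left out.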
